A study of Mus musculus with 6 samples.

Results

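Sox4 and Itm2a were followed across the states of CD4+ T cells recovered from mouse Peyer's patches. Both are rows of the single-cell matrices, 2 of 32285 genes, and were found by their symbols. They were chosen with measured levels from these same libraries in view, by state and by genotype as far as is known, so their levels by genotype and by state are given as a description, without a test. All donor cells were CD4+ OT-II cells from OTII+/+RAG-/- mice, whose transgenic receptor recognises an ovalbumin peptide, so that both groups share the receptor and the RAG deletion. They were either WT, in libraries WT 1 and WT 2, or TgfbrIWT/mut, heterozygous for an M318R knock-in at the Tgfbr1 locus, in libraries mutant 1 and mutant 2. In both groups the cells were injected into CD45.1 WT hosts, which have normal receptors and T cells of their own, the hosts drank 1.5% ovalbumin for 7 days, and on day 8 donor T cells were recovered from their Peyer's patches by sorting. Ages of donors and hosts, and whether a library is 1 animal or a pool, are not given in the labels, and p-values therefore measure only the spread between libraries, which may be technical.

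Sox4 is a transcription factor with an HMG-box DNA-binding domain, active in progenitor cells and lymphocyte development. In T cells it is a known target of TGF-beta signalling, in which the type I receptor kinase encoded by Tgfbr1 phosphorylates SMAD proteins that then bind DNA at short CAGAC-like sites. Itm2a encodes a type II membrane protein of the BRICHOS family, and its transcript is known to rise on T cell activation and during thymocyte selection.

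Sox4 (ENSMUSG00000076431) lies on the minus strand of chr13:28948919-28953713 (GRCm38, GENCODE M21), as a gene of 1 exon with a transcript of 4795 bases. A lincRNA, Gm26735, is annotated across it on the plus strand and is not a row of the matrices. Whether counting used strand is not given in the sources used here, so reads of that RNA could not be told apart from Sox4 reads if it was not. Itm2a (ENSMUSG00000031239) lies on the minus strand of chrX:107397099-107403376, with 6 exons and a transcript of 1744 bases, and no annotated gene overlaps it. Since both genes were high in the same cells, the 250 bases before each RefSeq start (GRCm38.p6) are shown for chr13:28953700-28953949 and chrX:107403361-107403610, read on the minus strand from 5′ to 3′. Capitals mark matches, on either strand, to the SMAD half-site CAGAC, the AP-1 motif TGANTCA or the NFAT core GGAAA.
Sox4 promoter: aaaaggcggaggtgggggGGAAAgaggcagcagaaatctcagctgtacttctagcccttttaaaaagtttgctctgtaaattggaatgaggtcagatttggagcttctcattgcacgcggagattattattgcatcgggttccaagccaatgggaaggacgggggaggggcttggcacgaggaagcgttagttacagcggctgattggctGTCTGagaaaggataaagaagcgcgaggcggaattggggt
Itm2a promoter: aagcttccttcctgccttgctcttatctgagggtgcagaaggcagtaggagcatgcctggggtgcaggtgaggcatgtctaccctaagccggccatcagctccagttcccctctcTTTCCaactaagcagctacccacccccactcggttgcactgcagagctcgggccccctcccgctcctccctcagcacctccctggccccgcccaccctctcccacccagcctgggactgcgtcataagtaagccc

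The Sox4 window held 1 CAGAC match, 40 bases before the start, and the Itm2a window held 0. CAGAC occurs in 42.2% of 32536 RefSeq promoter windows of this length. Each window held 1 GGAAA match, found in 55.7% of windows, and neither held TGANTCA, found in 6.73%. Of the other motifs searched, CTTTG (the TCF/LEF core, in 48.7% of windows) matched neither, TGACG (a CRE half-site, in 17.9%) matched only Itm2a, and CANNTG (the E-box, in 66.2%) matched both. G and C made up 50.8% of the Sox4 window and 62.8% of the Itm2a window, against a median of 52.4%. These matches describe letters only, and no binding was measured.

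The matrices held 4803 barcodes. After filters on genes and mitochondrial UMIs, removal of 31 called doublets and of a cluster of 107 cells led by B cell and epithelial genes, 2970 T cells were kept, numbering 1276 (WT 1), 631 (WT 2), 882 (mutant 1) and 181 (mutant 2). Their summed UMIs ran from 1704466 to 12048907 per library and their median UMIs from 8638 to 9039 per cell. The label of CD4+ T cells fitted these cells, since Cd3e was detected in 99.2%, Cd4 in 88.6% and Cd8a in 0.0337% of them. Any pair of libraries shared at most 2 kept barcodes. Summed B cell markers reached 168.2 and 226.7 CPM (a gene's UMIs over all UMIs of the same cells, scaled to 1e+06) for WT against 289.8 and 338.5 CPM for mutant libraries, and their part in the results was not tested. The WT matrices carry 3 antibody tags and the mutant matrices none, so hashtag handling and genotype cannot be told apart.

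Both transcripts were sparse and concentrated in few cells. Sox4 gave 1338 UMIs in 308 cells (10.4% of kept T cells), of which 157 held 3 or more UMIs and the richest held 22. Itm2a gave 1953 UMIs in 773 cells (26.0%), of which 211 held 3 or more and the richest held 31. In the smallest library, mutant 2, the 10 richest cells held 100% of the Sox4 UMIs and 70.6% of the Itm2a UMIs, so values of that library rest on a handful of cells.

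Cells were clustered without the 2 genes among the variable genes, and clusters were named from marker lists. Sox4 was highest in 138 cytotoxic-like cells, a cluster led by Eomes (a T-box factor of cytotoxic and memory cells), Nkg7 (a granule protein), Slamf7 and Crtam, and also by Nr4a2 and Ikzf2. There the WT libraries read 335 and 445 CPM while mutant 1 read 528 and mutant 2 read 282 CPM (mean 397 ± 111, SD, n = 4), with a UMI in 62.3% of cells. The genotypes overlapped in this cluster, whose counts rest on 74, 34, 24 and 6 cells. Next came 338 cells named receptor-stimulated, led by Nr4a1, Tnfrsf9, Nr4a3 and Myc, genes induced within hours of receptor engagement. Sox4 stood there at 134 and 170 CPM in WT 1 and WT 2, at 54.6 CPM in mutant 1 and at 0 of 4 cells in mutant 2, where 3 counts would be 54.8 CPM (mean 89.6 ± 76.8). These cells came mainly from WT 1, which gave 250 of the 338.

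Naive or memory-like cells, led by Klf2, Ccr7 and S1pr1 (genes of recirculating cells), held Sox4 at 88.0 and 58.1 CPM for WT against 17.5 and 10.6 CPM for mutant libraries (mean 43.5 ± 36.3). The remaining clusters were far lower, and the T follicular helper (Tfh)-like cells, which give help to B cells, held 21 Sox4 UMIs in 871 cells, a mean of 1.78 CPM. Cluster 9, led by Gzmb, Ccr9, Il10 and Foxp3, held 0 Sox4 UMIs in 94 cells, which allows a share of up to 3.19% of cells with a UMI. Down this order, the ranges over libraries did not overlap between the cytotoxic-like and receptor-stimulated clusters and overlapped between all later neighbours.

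Itm2a followed a similar order with a shallower slope. Cytotoxic-like cells read 253 and 486 CPM for WT against 203 and 104 CPM for mutant libraries (mean 261 ± 162, SD, n = 4), and both WT values exceeded both mutant values. The mutant 2 value came from 7 UMIs in 1 of 6 cells, and it was 306.1 CPM with the 2 genes among the variable genes and 293.1 CPM under the looser cell filter, where it exceeded WT 1 (272 and 259.5 CPM). In receptor-stimulated cells the WT values were 203 and 201 CPM and the mutant values 141 and 438 CPM, the last from 24 UMIs in 4 cells, of which 1 cell gave 21. Naive or memory-like cells held 100.2, 65.9, 114 and 63.4 CPM in the same library order, and the genotypes overlapped. Itm2a was lowest in Tfh-like cells, with WT values of 13.8 and 11.2 CPM, mutant values of 14.6 and 16.8 CPM, and a UMI in 10.3% of cells against 67.4% of cytotoxic-like cells. Both mutant values there exceeded both WT values. Clusters 2 and 0, which took no name, lay between, at means of 50.4 and 34.6 CPM. Down the order, the ranges did not overlap between receptor-stimulated and naive or memory-like cells and overlapped between all other neighbours.

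**Figure D1:**
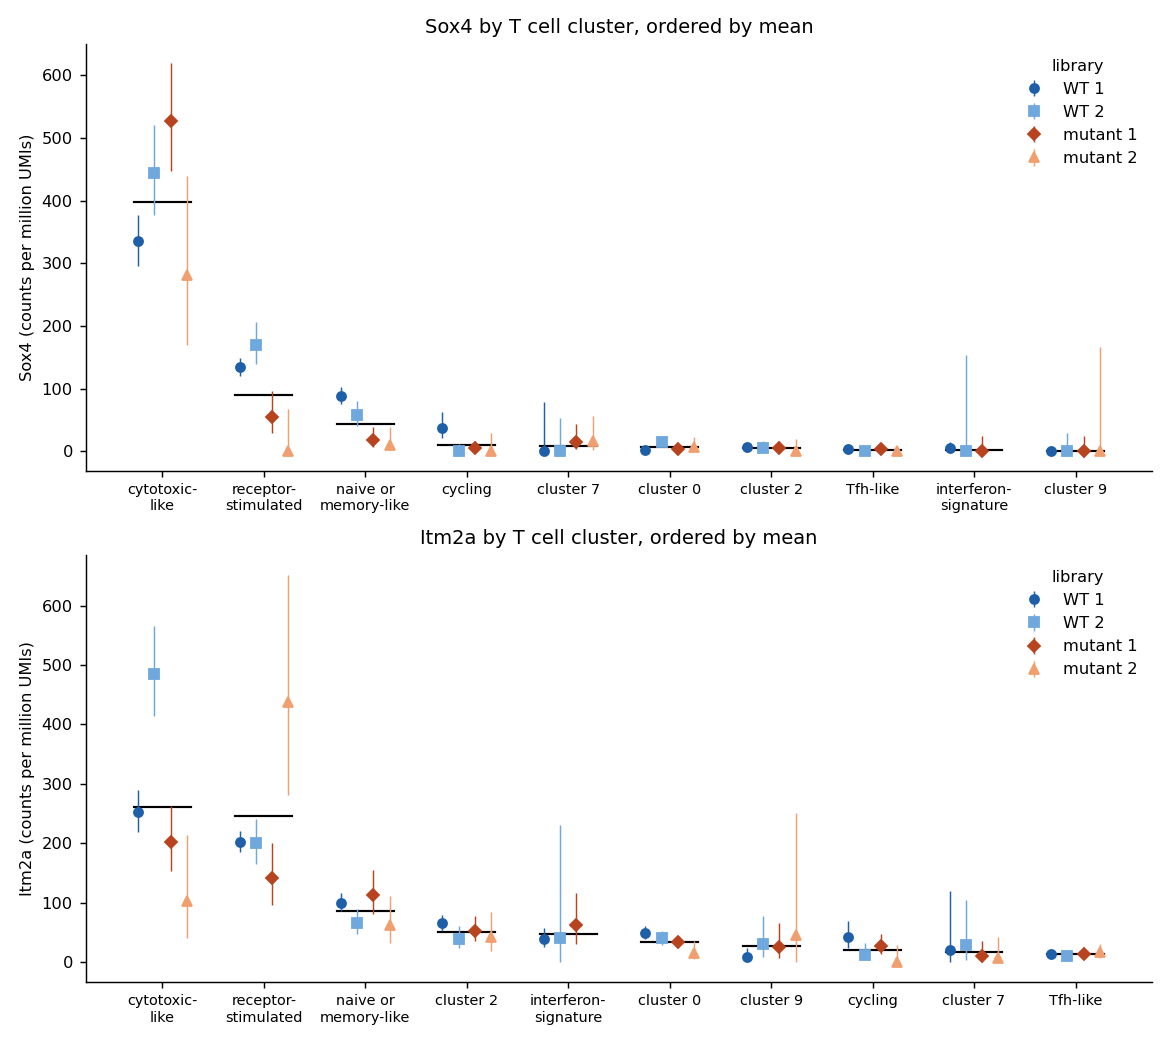
Sox4 (one panel) and Itm2a (the other) in CPM for each cluster or named state, with points for the 4 libraries, black bars for the mean over libraries and thin error bars for exact Poisson 95% intervals that cover counting error only. Cytotoxic-like cells lead for both genes (means 397 and 261 CPM), and Tfh-like cells lie at 1.78 and 14.1 CPM.

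The highest place of the cytotoxic-like cells did not depend on the clustering, and the name of the next cluster did. In all 6 clusterings run, the cytotoxic-like cluster had the highest mean of both genes, at 369.7 to 397.3 CPM for Sox4 and 258.1 to 312.3 CPM for Itm2a. At resolution 0.4 no cluster was named receptor-stimulated, and 332 of the 338 cells fell among naive or memory-like cells. When the 2 genes were allowed among the variable genes, only 50 of the 338 kept the name, and the cluster that then carried it stood at 7.53 CPM for Sox4, while naive or memory-like cells stood at 84.2 CPM. Under the looser cell filter and with doublets kept, the named cluster stood at 6.39 and 5.47 CPM and naive or memory-like cells at 56.3 and 83.7 CPM. At resolution 1.2 Sox4 stood at 59.2 CPM in receptor-stimulated and 41.6 CPM in naive or memory-like cells. The name then covered more than 1 cluster. Of these, 238 cells led by Trpm1, Arhgap20, Eno3, Tnfrsf9 and Bmyc stood at 117.5 CPM for Sox4 and 255.2 CPM for Itm2a. Another 78 cells, led by Nr4a1, Egr3, Nr4a3, Myc and Tagap1, stood lower, at 42.5 and 102.4 CPM. All other values given for receptor-stimulated cells are those at resolution 0.8.

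Grouping these 3 clusters after their values were seen, they held 93.3% of all Sox4 UMIs and 71.7% of all Itm2a UMIs. Their share of cells was 40.8% (WT 1), 26.5% (WT 2), 9.98% (mutant 1) and 14.9% (mutant 2). Outside them Sox4 lay at 5.34, 5.29, 3.85 and 2.87 CPM in WT 1, WT 2, mutant 1 and mutant 2. Itm2a outside them lay at 36.8, 24.5, 24.3 and 18.0 CPM in that order.

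Shares were also read by single marker genes in the same cells, without the cluster labels. For these shares, each cell was thinned to 4000 UMIs, which left out 152 shallower cells. Genes for the splits were picked from the marker lists after the clusters had been seen. Of 147 cells with an Eomes UMI, 51.7% had a Sox4 UMI, against 5.92% of the other cells, and 47.6% had an Itm2a UMI against 14.6%. The split held in every library for Sox4, at 46.2%, 65.7%, 56.0% and 28.6% of Eomes-positive cells against 10.3%, 3.92%, 1.63% and 2.03% of the rest. Of the Eomes-positive cells, 124 belonged to the cytotoxic-like cluster, so this split largely restates that cluster. Inside it, Sox4 was found in 53.2% of cells with Eomes and in 5 of 8 cells without. Nr4a1, an early response gene of the T cell receptor, split Sox4 at 17.5% against 6.91% and Itm2a at 26.6% against 14.8%. Tnfrsf9 split Sox4 at 15.2% against 5.43% and Itm2a at 25% against 12.7%. Myc split them at 20% against 7.78% and 26.7% against 15.9%. Egr3 and Cd69, which also respond to the receptor, split less. Egr3 stood at 9.52% against 8.04% for Sox4 and 19.1% against 15.7% for Itm2a. Cd69 stood at 9.34% against 7.45% and 18.7% against 14.4%. The shares for these receptor-response genes pool the libraries, and some libraries went the other way. For Itm2a, WT 2 did with Myc (2 of 25 cells against 17.5%). Mutant 2 did with Nr4a1 (0 of 7 cells against 8.11%) and Egr3 (0 of 25 against 9.23%). For Sox4, mutant 1 did with Cd69 (2.9% against 3.63%) and mutant 2 with Tnfrsf9 (2.94% against 3.31%).

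Markers of Tfh function went the other way. Only 0.857% of 934 cells with Il21, the Tfh cytokine, had Sox4, against 12.0% of cells without it, and 7.71% against 20.6% had Itm2a. Il4 split Sox4 at 0.751% against 10.1%, and Ascl2, a factor of early Tfh cells, at 0.320% against 9.30%. Cxcr5, the follicle homing receptor that defines the subset, split both genes little, at 6.93% against 8.70% for Sox4 and 12.1% against 17.5% for Itm2a. Cells without Maf, a factor that drives Il4 and Il21, had Sox4 in 30.2% and Itm2a in 38.2%, and cells with Maf in 5.05% and 13.1%. In the left-out cluster of B cell and epithelial genes, 0 of the 53 cells that reached 4000 UMIs had Sox4 (exact 95% upper bound 6.72%) and 5.66% had Itm2a, at a median depth of 6753 UMIs before thinning. At full depth that cluster held 11 Sox4 UMIs in 4 of 107 cells (13.1 CPM) and 19 Itm2a UMIs in 7 cells (22.6 CPM, with 133.5 CPM in WT 1 from 5 of 17 cells). It thus gives no clean background level.

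**Figure D2:**
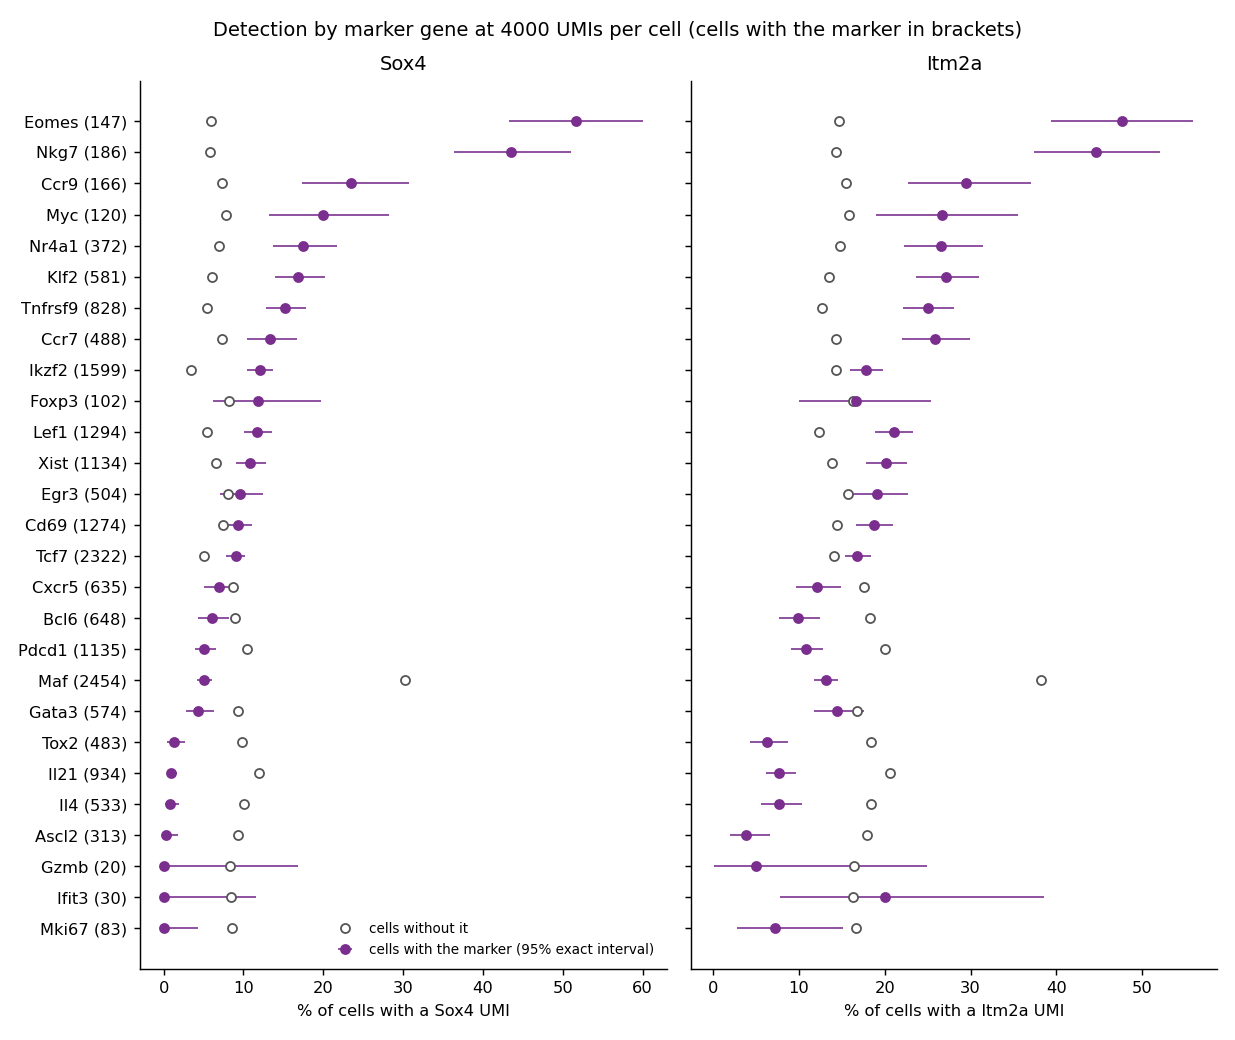
Percent of kept T cells with a Sox4 or an Itm2a UMI at 4000 UMIs per cell, for cells with a UMI of each marker gene on the axis (filled points with exact 95% intervals, number of cells in brackets) and for cells without one (open points). Cells with Eomes stand at 51.7% for Sox4, and cells with Il21, Il4 or Ascl2 at 0.857%, 0.751% and 0.320%.

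Sox4 and Itm2a were often found in the same cell. At 4000 UMIs per cell, 234 of 2818 cells (8.30%) had Sox4, 460 (16.3%) had Itm2a and 119 had both. Itm2a was detected in 50.9% of cells with Sox4 and in 13.2% of the others. If the genes were detected independently within each library, 43.9 cells would hold both, so the observed number was 2.71 times that (exact Poisson 95% interval 2.25 to 3.25, which covers counting error only). Independence within each cluster and library gave 86.3 expected cells and a ratio of 1.38 (1.14 to 1.65).

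By library, 84 cells held both in WT 1 against 58.5 expected within clusters (ratio 1.44, 1.15 to 1.78), 24 in WT 2 against 19.0 (0.811 to 1.88), 11 in mutant 1 against 8.25 (0.666 to 2.39), and 0 in mutant 2 against 0.597. At this depth only the interval of WT 1 lay above 1, and without WT 1 the ratio was 1.26 on 35 cells (0.877 to 1.75). By cluster, the ratio lay at 1.55 (1.17 to 2.02) in receptor-stimulated cells, at 1.23 (0.883 to 1.66) in cytotoxic-like cells and at 1.17 (0.671 to 1.91) in naive or memory-like cells. Only the first interval lies wholly above 1 at this depth, and differences between the clusters were not tested.

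**Figure D3:**
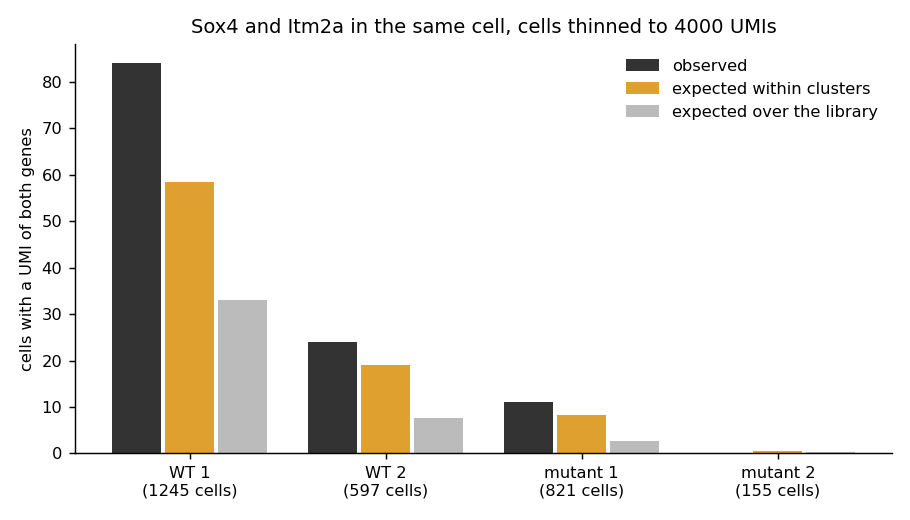
Number of cells with a UMI of both genes at 4000 UMIs per cell in each library, observed and expected from independent detection within clusters or over the whole library. The observed bars stand above both expectations in WT 1, WT 2 and mutant 1 (84, 24 and 11 cells), and mutant 2 had 0.

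To ask which other genes went with Sox4 inside a cluster, cells with a Sox4 UMI were summed per library and set against an equal draw of cells without one from the same clusters and libraries. Matching kept 157 of 157, 38 of 45, 20 of 27 and 5 of 5 cells with Sox4. In mutant 2, 5 cells with and 5 without Sox4, each thinned to 4000 UMIs, were compared. The direction of a gene in that library can therefore rest on very few UMIs. Of 1870 genes tested with edgeR's quasi-likelihood test and Benjamini-Hochberg adjustment, 9 rows were called (0.481%). This counts the row of Itm2a, from which nothing is read because the 2 genes were chosen together, and which was not called by DESeq2 or at 2000 UMIs per cell. Ikzf2, which encodes Helios, a factor of regulatory and receptor-stimulated T cells, rose from 486.6 to 1247 CPM in WT 1 and from 689.9 to 1329 CPM in WT 2. It rose from 474.3 to 908 CPM in mutant 1 and from 121 to 1624 CPM in mutant 2, so it was higher in 4 of 4 libraries. Its log2 difference was 1.23 ± 0.15 (SE) with an edgeR adjusted p of 9.95e-07, and it stayed called in all alternatives, with adjusted p from 5.37e-15 to 0.00209. Itm2a aside, Ikzf2 was the only one of the 9 genes of which that was true.

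The other calls held under fewer alternatives. Nrgn (neurogranin, a calmodulin-binding protein) rose by 1.00 on the log2 scale, in 3 of 4 libraries, with an edgeR adjusted p of 0.00137 (0.996 at most over the alternatives). Ift80 rose by 0.95 in 4 of 4 libraries. Cd82 (log2 difference -1.11) and Maf (-0.57) fell in 3 of 4, and Cd52 (-0.65) and Srgn (-0.57) in 4 of 4. Without WT 1, the calls of Nrgn, Cd82, Maf and Srgn were lost (edgeR adjusted p = 0.845, 0.603, 0.855 and 0.603), and without WT 2 the same 4 (0.227, 0.227, 0.731 and 0.115) and Cd52 (0.588). Without mutant 2, Nrgn (0.0894), Maf (0.0755), Cd52 (0.143) and Ift80 (0.0698) were lost, and Ift80 was not tested without either WT library. Gm42418, a predicted gene rich in ribosomal RNA sequence whose reads may map uncertainly, rose by 0.61, and another draw of cells ended that call. Itm2a itself was 0.89 ± 0.21 higher on the log2 scale, in 3 of 4 libraries, given without a p because it was chosen together with Sox4.

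The same comparison for Itm2a used 262 of 262, 99 of 102, 84 of 84 and 11 of 12 cells and called 8 of 4698 genes (0.17%), counting the row of Sox4, from which nothing is read and which DESeq2 did not call. Ikzf2 rose by 0.63 ± 0.09 on the log2 scale, from 356.6 to 627.7, 505.7 to 668.6, 345.2 to 478.1 and 302.3 to 591.5 CPM in WT 1, WT 2, mutant 1 and mutant 2 (edgeR adjusted p = 4.45e-10). Without WT 1 that call was lost (edgeR adjusted p = 0.725), as it was with DESeq2 (0.0637) and at 2000 UMIs per cell (0.998). Nrgn rose by 1.15 ± 0.13 (edgeR adjusted p = 2.63e-17), higher in 3 of 4 libraries, and was not called by DESeq2 (0.999). Gm19585 (0.74) and Xist (0.37) rose, and Tnfrsf4 (-0.86), Gm42418 (-0.43) and Malt1 (-0.37) fell, each losing its call in at least 2 of the fits that left out a library. Their largest edgeR adjusted p in those fits was 0.749 for Gm19585, 0.997 for Xist, Tnfrsf4 and Malt1, and 0.597 for Gm42418, whose libraries were split, with 2 of 4 lower. Xist was higher in 2 of 4 libraries, both WT, Gm19585 in 4 of 4, and Tnfrsf4 was lower in 3 of 4. Sox4 was 1.01 ± 0.16 higher, again without a p. The comparisons for the 2 genes share cells, so Ikzf2 and Nrgn in both are not independent observations.

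**Figure D4:**
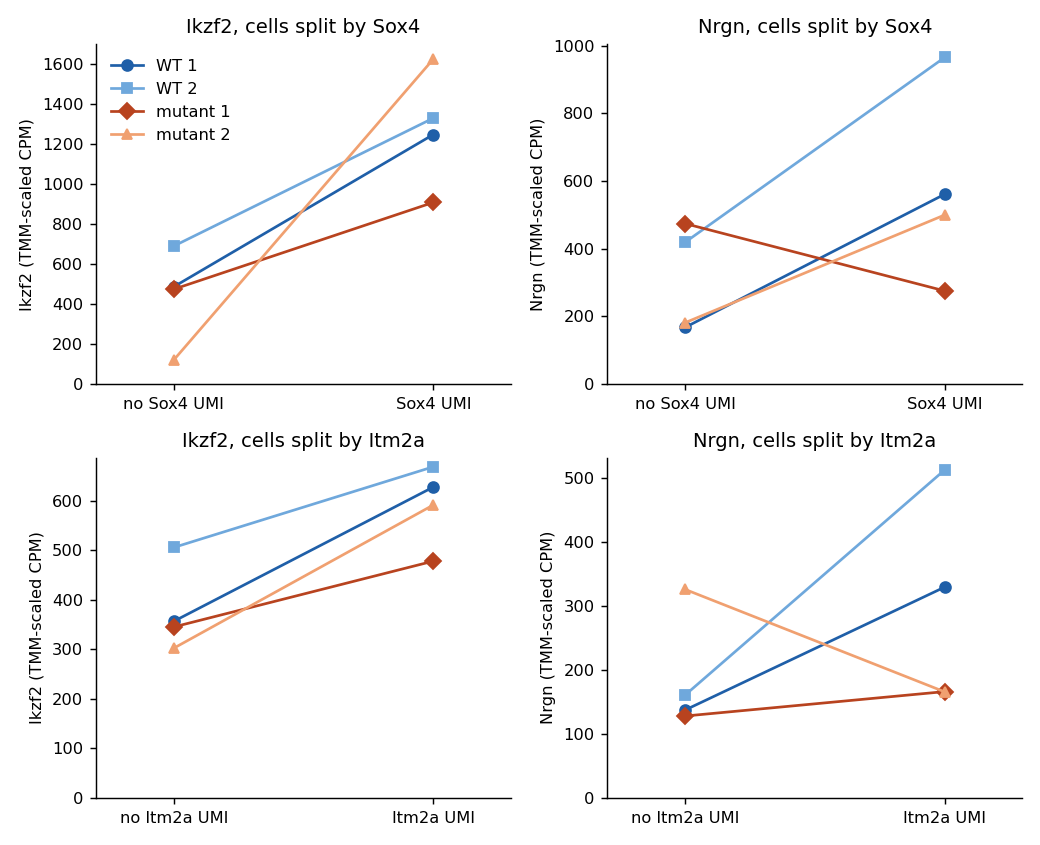
Ikzf2 and Nrgn in TMM-scaled CPM in summed cells without and with a UMI of Sox4 (upper panels) or Itm2a (lower panels), matched for cluster, with 1 line per library. Ikzf2 rises in all 4 libraries in both panels, and Nrgn rises in 3 of 4.

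Split by an Ikzf2 UMI at 4000 UMIs per cell, receptor-stimulated cells had Sox4 in 42.5% of 186 cells with Ikzf2 and 8.72% of 149 without. The split was 21.1% against 7.84% in naive or memory-like cells and 60.8% of 102 against 9 of 30 cells in cytotoxic-like cells. For Itm2a the same splits were 46.2% against 30.2%, 33.3% against 20.3% and 53.9% against 26.7%. These shares pool the libraries, and WT 1 gave 144 of the 186 cells. Itm2a went the other way in WT 2 naive or memory-like cells (20% against 21.2%). It also did in mutant 1 cytotoxic-like cells (8 of 19 against 2 of 4). Sox4 did in mutant 2 naive or memory-like cells (0 of 6 against 1 of 11). Ikzf2 had been called in these same thinned cells, so its splits are not a separate observation. Foxp3, the defining factor of regulatory T cells, split all cells pooled little, at 11.8% of 102 cells against 8.17% for Sox4 and 16.7% against 16.3% for Itm2a. WT 1 gave 76 of those 102 cells. There Itm2a stood at 15.8% with Foxp3 against 21.4% without, and in WT 2 at 5 of 16 cells against 16.7%, so these libraries went opposite ways.

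Without matching for cluster, the comparison also carries the cluster mix. It called 334 of 6400 genes for Sox4 (5.22%) and 394 of 7065 for Itm2a (5.58%). Of 14 Tfh genes tested, 10 fell and 0 rose in Sox4-detected cells (median log2 difference -1.01, against -0.02 over all genes), among them Il21 (203.1 to 15.9 CPM) and Sostdc1 (147.2 to 0.449 CPM), while Cxcr5 (log2 difference -0.38, edgeR adjusted p = 0.596) and Bcl6 (-0.51, 0.346) did not pass. In Itm2a-detected cells 10 of the 14 fell, Cxcr5 and Bcl6 among them, and Slamf6 rose (median -0.68). Receptor-induced genes rose in part: 5 of 11 with Sox4 (Nr4a1, Nr4a2, Nr4a3, Tnfrsf9 and Myc) and 8 of 11 with Itm2a, while Cd40lg, the ligand that helps B cells, fell with both. Of 9 listed Th1 or cytotoxic genes only 2 were tested with Sox4, and both lead the cytotoxic-like cluster. Both rose, Nkg7 from 39.8 to 367.3 CPM and Eomes from 24.1 to 369.2 CPM. Gzmb, of the same list, was not tested. Of 20 thinned cells with a Gzmb UMI, 0 had Sox4 (exact upper bound 16.8%), against 8.36% of the others. That is too few cells to place Gzmb. Ccr9, which also leads cluster 9, split Sox4 at 23.5% of 166 thinned cells against 7.35%, and Itm2a at 29.5% against 15.5%. WT 1 gave 110 of those 166 cells, and in mutant 1 Itm2a went the other way (2 of 22 cells against 10.3%). Of 11 genes induced by TGF-beta, only Smad7, the feedback inhibitor of the pathway, rose with Sox4 (43.6 to 111.8 CPM), and Bhlhe40 and Ctla4 fell. Smad7 also rose with Itm2a (39.7 to 90.4 CPM).

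Across genotypes, the pooled T cells of each library held Sox4 at 66.9 and 54.3 CPM for WT against 24.9 and 14.7 CPM for mutant libraries (60.6 ± 8.88 against 19.8 ± 7.27, SD, n = 2 each). The mutant mean was 0.327 times the WT mean, and the groups did not overlap. Itm2a lay at 96.2 and 74.8 CPM against 37.9 and 39.9 CPM (85.5 ± 15.2 against 38.9 ± 1.39), a ratio of 0.455, again without overlap. How many of all genes also lacked overlap was not counted. A lack of overlap, here and within clusters, therefore only describes these values. Cluster 7, whose cells had a median of 3337 UMIs and 7.48% mitochondrial UMIs, took 1.10% and 3.33% of WT cells and 6.58% and 14.9% of mutant cells. With that cluster left out, Sox4 read 67.2 and 55.0 CPM for WT against 25.2 and 14.6 CPM for mutant, and Itm2a 96.5 and 75.3 against 38.7 and 42.5 CPM. The fitted log2 differences, mutant minus WT, were -1.50 ± 0.20 for Sox4 and -1.17 ± 0.16 for Itm2a. They may be among the values that led to the choice of the genes, and the same fit called 148 of 10727 genes (1.38%). Among thinned cells, 572 had an Xist UMI and 673 had none in WT 1, and 277 and 320 in WT 2. The counts were 227 and 594 in mutant 1, and 58 and 97 in mutant 2. In library order, cells with Xist had Sox4 in 14.5%, 9.0%, 6.17% and 1.72%, against 11%, 6.25%, 2.19% and 4.12% without. Itm2a stood at 23.1%, 20.9%, 13.2% and 13.8% against 19.3%, 13.75%, 9.09% and 4.12%. How far this Xist mix bears on the genotype differences was not tested.

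Cluster shares differed between libraries, in clusters with high and with low levels of the 2 genes. Receptor-stimulated cells took 19.6% (WT 1), 9.51% (WT 2), 2.72% (mutant 1) and 2.21% (mutant 2) of cells, and Tfh-like cells 17.6%, 31.2%, 44.7% and 30.4%. Levels were also computed with the same cluster mix in every library, called equal cluster shares here. Each of the 9 clusters that had at least 4 cells in every library took its mean share over the libraries. The clusters thus kept unlike weights. In that mix Sox4 lay at 40.1 and 46.5 CPM in WT and at 35.1 and 16.4 CPM in mutant libraries (log2 difference -0.58). Itm2a then lay at 66.7 and 67.4 CPM against 55.0 and 66.9 CPM (-0.16). Both differences were smaller than in the pooled cells, and the Sox4 groups did not overlap while the Itm2a groups did. The Itm2a value of mutant 2 rests on its 4 receptor-stimulated cells, of which 1 gave 21 of 24 UMIs. With that cluster left out, the other 8 clusters, in the same mix in every library, gave Itm2a 52.9 and 53.9 CPM for WT against 46.2 and 29.1 CPM for mutant, without overlap. They gave Sox4 30.6 and 33.9 against 33.1 and 18.1 CPM, with overlap.

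Within clusters, Sox4 was too sparse to be fitted outside the 3 clusters that hold it, and inside them the mutant libraries held too few cells. Among naive or memory-like cells both WT values lay above both mutant values, in receptor-stimulated cells as well at resolution 0.8, and in cytotoxic-like cells the groups overlapped (390 ± 77.5 against 405 ± 174 CPM). The order in the cluster named receptor-stimulated was lost with the 2 genes among the variable genes (7.96 and 7.01 CPM for WT, 15.1 and 0 for mutant) and under the looser filter (9.70 and 2.83 against 13.03 and 0). Itm2a could be fitted in 3 clusters, with log2 differences of 0.28 ± 0.30 in Tfh-like cells, -0.53 ± 0.26 in cluster 0 and -0.13 ± 0.31 in cluster 2. The background of edgeR calls there was 0.241%, 0.146% and 0.0337% of 9128, 8193 and 5936 genes. Per library, Itm2a in cluster 0 read 48.6 and 40.3 CPM in WT against 34.1 and 15.2 CPM in mutant cells, without overlap, and in cluster 2 it read 65.5 and 39.7 against 53.4 and 42.9 CPM, with overlap. In Tfh-like cells the direction was opposite to that of cluster 0, with both mutant values above both WT values.

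**Figure D5:**
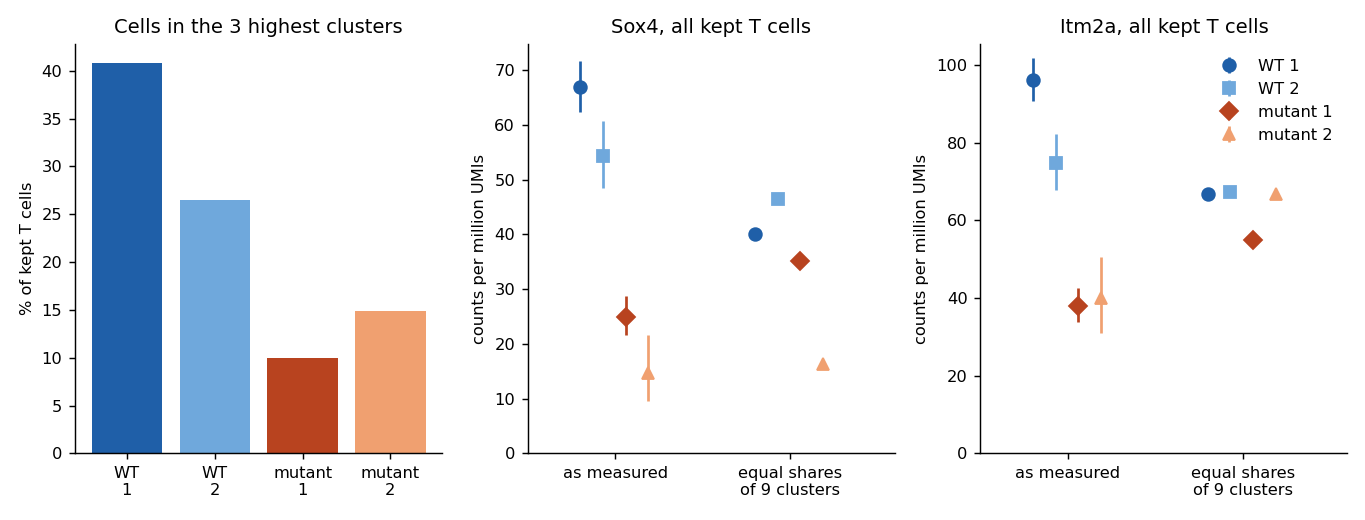
Percent of kept T cells in the 3 highest clusters (bars, 1 per library), and Sox4 and Itm2a in CPM for each library. Points as measured carry exact Poisson 95% intervals for counting error. Points labelled equal shares give the 9 clusters the same mix in every library and have no intervals. The measured Sox4 values run from 66.9 and 54.3 (WT) to 24.9 and 14.7 CPM (mutant). With the same cluster mix the Itm2a groups overlap (66.7 and 67.4 against 55.0 and 66.9 CPM), an overlap that rests on 4 cells of mutant 2.

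Other genes of the TGF-beta pathway moved in part with genotype in pooled T cells. Of 15 tested components, Itgb8 (an integrin chain that activates latent TGF-beta) rose by 1.09 on the log2 scale, and Tgfbr3 (a co-receptor, -0.91), Smad7 (-1.41) and Skil (a SMAD corepressor, -0.80) fell, against 1.38% of all genes called (median -0.23 against -0.00 over all genes). Of 13 tested genes that TGF-beta induces, 0 rose and 5 fell: Smad7, Skil, Pmepa1 (a feedback inhibitor, -1.23), Foxp3 (-1.99) and Ahr (-1.03), with a median of -0.22. Lef1, a factor of naive cells, fell by 0.69. Pmepa1 had an edgeR adjusted p of 0.000518 (1.12e-11 to 0.052 over the alternatives) and Smad7 of 0.0023 (3.37e-13 to 0.131). All 8 of these genes lost their call without mutant 1 (edgeR adjusted p from 0.052 for Pmepa1 to 0.347 for Itgb8), and all but Smad7 and Pmepa1 also without WT 1 (0.0727 for Foxp3 to 0.642 for Tgfbr3 and Lef1). With equal cluster shares Smad7 (-1.12), Skil (-0.67), Pmepa1 (-1.04), Foxp3 and Ahr (-0.93) stayed called and the other 3 did not. Within Tfh-like cells, where both Sox4 and Itm2a were near their lowest, Pmepa1 fell by 1.42 (edgeR adjusted p = 0.00457, and 0.266 without WT 1), and no other gene of either list was called, against 0.241% of all genes.

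Over 29 cluster-by-library units with at least 20 cells, 7831 genes were ranked by how closely their log2 level followed each gene, as a description, since units share libraries and depth. B4galnt1 (a ganglioside synthase, r = 0.920), Arhgap20 (0.895), Ntn4 (0.887) and Ramp1 (0.883) were among the 5 genes most like Sox4, and Itm2a came 7th (0.859). Tubb5 (a tubulin, 0.929), B4galnt1 (0.914), Sox4 (0.859), Ramp1 (0.847) and Swap70 (0.832) were most like Itm2a. Among the relatives, Sox12 was the most detected of 15 other Sox genes listed, with 13 UMIs in all kept T cells. Itm2b and Itm2c gave 24193 and 4254 UMIs, and Itm2c read 155.2 and 153.2 CPM for WT against 162 and 137.3 CPM for mutant libraries, so the genotypes overlapped there.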

How the data were processed

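The authors deposited raw UMI counts per gene and cell. The submitters' processing notes name Cell Ranger 6.0.0, Seurat 4 and the mm10 build. The reads came from 10x 3′ libraries of sorted donor T cells, per the labels' protocols. Barcodes with at least 500 genes and at most 10% mitochondrial UMIs were kept (3108 of 4803), and Scrublet doublets were left out. Cells were clustered in scanpy 1.11.5 (leidenalg 0.10.2, resolution 0.8, 30 principal components, 15 neighbours, seed 0) on 1748 of 2000 variable genes, leaving out Sox4, Itm2a and receptor, immunoglobulin, mitochondrial, ribosomal and predicted genes. A cluster took a name when at least 3 markers of 1 list were among its 50 leading genes. Levels are CPM from all gene UMIs of the cells summed, and intervals are exact (Poisson or Clopper-Pearson, 95%) and cover counting error only. For a count of 0, 3 counts set the limit. Sums per library went through filterByExpr and TMM scaling to the test of edgeR 4.0.16 (quasi-likelihood, Benjamini-Hochberg threshold 0.05, prior count 2), with library as a block for cells with and without a UMI. Genotype was fitted within clusters with at least 20 cells in every library.

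The 2 genes, the lists and the tests were chosen with earlier results of these data known. Text names the 2 genes, list genes, the 5 genes most like each (Pearson r of log2(CPM + 10), at least 200 UMIs), and the 5 largest called rises and falls in each comparison with a mean of at least 20 CPM. Splits by single markers, the group of 3 clusters, the minimum of 4 cells per library for equal shares, and the alternatives leaving out cluster 7 or the receptor-stimulated cluster, robust fit, another draw of cells and the clusterings of looser and doublet-containing cells were chosen after seeing the data. Other alternatives were DESeq2 1.42.0, a replicate block, no gene filter, other cell filters, resolutions 0.4 and 1.2, 2000 UMIs and leaving out each library. The labels do not say that replicate numbers pair the libraries, so the main genotype fits took no pairing. The scripts were tested on simulated data. Software was Python 3.11.15, R 4.3.3, limma 3.58.1, matplotlib 3.10.9, anndata 0.12.19, scipy 1.17.1 and numpy 2.4.6. Another 2 WT hashtag samples were not analysed here. Some marker genes are not reported here.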

Additional observations from a re-analysis of the deposited data

How the results depend on the processing

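With 2 libraries per genotype, counts of called genes moved widely. Pooled T cells had 94 genes higher and 54 lower in mutant libraries, against 37 and 27 with DESeq2, 234 and 144 with the replicate block, 240 and 171 without a gene filter, 151 and 85 with looser cell filters, 57 higher with doublets kept, 20 and 18 with equal cluster shares, and 3 to 167 and 6 to 100 without single libraries. Tfh-like cells had 12 and 10, against 0 and 2 with DESeq2, 25 higher with the replicate block, 26 and 16 at resolution 0.4, 36 and 22 at resolution 1.2, and 0 to 143 and 0 to 73 without single libraries. Cluster 0 had 5 and 7, against 0 and 0 with DESeq2 (87 genes at an unadjusted p under 0.05) and with edgeR's replicate block (664 unadjusted), and 5 to 44 and 0 to 44 without single libraries. Cluster 2 had 0 and 2, against 1 lower with DESeq2, 14 and 7 with the replicate block, and 1 to 7 and 0 to 12 without single libraries. A lone library left in a group was assumed to vary like the other group. The labels do not say that replicate numbers pair the libraries. Deviations of WT 1 and mutant 1 from their group means had a correlation of -0.002. Whether libraries of the same number share a batch was not tested.

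Cells with Sox4 had 5 genes higher and 4 lower, against 1 and 0 with DESeq2 (41 unadjusted), 139 and 195 without matching, 1 and 0 at 2000 UMIs, and 2 to 7 and 0 to 5 without single libraries. Cells with Itm2a had 5 and 3, against 0 and 0 with DESeq2 (42 unadjusted), 209 and 185 without matching, 1 and 1 at 2000 UMIs, 1 lower in the robust fit, 2 lower in another draw of cells, and 1 to 8 and 0 to 2 without single libraries. At 2000 UMIs the Itm2a comparison changed direction for Xist (-0.21) and Malt1 (0.04). The log2 difference of Sox4 between genotypes, -1.50, was -0.58 with equal cluster shares and -2.12 to -1.28 without single libraries, and that of Itm2a, -1.17, was -0.16 and -1.34 to -0.96. Both kept their direction. The causes of these changes were not tested. The co-detection ratio of 1.38 was 1.475 at 2000 UMIs and 1.29 at full depth. At full depth the intervals of WT 2 (1.004 to 1.82) and of naive or memory-like cells (1.02 to 1.97) also lay above 1. Levels of receptor-stimulated cells have no value at resolution 0.4, where no cluster took that name. The number of cells limits mutant 2, with 181 kept T cells and 6 with a Sox4 UMI.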

Other observations

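Within the WT libraries, cells can be split by the antibody tag with most UMIs, whose meaning the labels do not give. In WT 1, Sox4 read 80.6, 42.6 and 52.1 CPM in cells of tags 301, 302 and 303 and 87.0 CPM in cells of no tag, and Itm2a read 97.8, 75.6, 81.4 and 126.1 CPM. In WT 2, Sox4 read 64.8, 6.28, 50.8 and 66.7 CPM and Itm2a 84.3, 71.1, 54.0 and 101.3 CPM in the same order, with 55 cells of tag 302. Barcodes left out for over 10% mitochondrial UMIs held less Itm2a than kept cells in every library, at 8.25, 11.1, 6.07 and 1.95 CPM. Sox4 in them was 21.4, 12.7, 6.83 and 35.1 CPM in WT 1, WT 2, mutant 1 and mutant 2, the last above the kept cells of that library.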
